A study of Homo sapiens with 30 samples.

Results

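The genes described here are 33 genes of cholesterol and fatty acid synthesis and uptake, taken by name from the 60675 genes of an RNA-seq count table of SW1783 cells, a human astrocytoma line, treated with herbal extracts. They were read as 2 arms. The sterol arm holds 22 genes: the enzymes from acetyl-CoA to cholesterol (ACAT2, HMGCS1, MVK, PMVK, MVD, IDI1, FDPS, FDFT1, SQLE, LSS, CYP51A1, TM7SF2, MSMO1, NSDHL, HSD17B7, EBP, SC5D and DHCR7), and the sensor, transcription factor and transport genes INSIG1, SREBF2, STARD4 and NPC1. The fatty acid arm holds 11 genes: the transcription factor gene SREBF1, the enzymes that make and extend fatty acids (ACLY, ACSS2, ACACA, FASN and ELOVL6), the desaturases SCD, FADS1 and FADS2, the acyl-CoA synthetase ACSL3 and the phosphatidate phosphatase LPIN1. All 33 passed the filter on low counts.

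Cells were harvested after 24 h with 0.1% DMSO as vehicle, per the sample labels (the design text of the series gives another share of DMSO), or with an extract at 500, 100 or 20 µg/mL. Vehicle had 3 libraries. For 2 herbal formulas extracted in water, Sibjeondaebo-tang and Palmul-tang, each dose was sequenced as 3 libraries, 9 per formula. Another formula in water, Samul-tang, and 2 herbs extracted in ethanol, Poria Cocos and Atractylodis Rhizoma, have 1 library per dose among these samples. The labels number it replicate 3 for Samul-tang and replicate 1 for the ethanol extracts. In the text "both formulas" means Palmul-tang and Sibjeondaebo-tang. All libraries come from 1 cell line with no genetic change, and the labels do not say that replicates were separate cultures, so p-values measure the spread between libraries, which may be technical. The sample codes of the vehicle, Samul-tang, both formulas and the ethanol extracts fall into separate sets. In any comparison with vehicle, extract and code set therefore cannot be told apart, while doses of 1 extract share a set.

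Cells make cholesterol from acetyl-CoA through mevalonate, squalene and lanosterol, and make saturated fatty acids from malonyl-CoA, which are then elongated and desaturated. The transcription factors SREBP2 (gene SREBF2) and SREBP1 (SREBF1) switch on most genes of both routes when sterols in the endoplasmic reticulum are low, and INSIG1 holds them back when sterols are plentiful. In the brain, astrocytes are a main source of the cholesterol and lipids that other cells use.

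The stretches below are the 250 bases before the RefSeq gene start of 6 members, from GRCh38.p14. SCD, NPC1 and ELOVL6 are shown because they were called with dose in each replicated formula, HMGCS1 as the other sterol arm gene whose call over both formulas no alternative removed, and INSIG1 and STARD4 because their change with dose differed between ethanol extracts and formulas. Capitals mark matches, on either strand, to CACNCCAC, the core of the classical sterol regulatory element, and to CCAAT, the box bound by NF-Y, which works beside SREBPs. SCD lies at chr10:100346983-100347232 (plus strand), NPC1 at chr18:23586507-23586756 (minus), ELOVL6 at chr4:110198616-110198865 (minus), INSIG1 at chr7:155297628-155297877 (plus), STARD4 at chr5:111512536-111512785 (minus) and HMGCS1 at chr5:43313413-43313662 (minus).
SCD: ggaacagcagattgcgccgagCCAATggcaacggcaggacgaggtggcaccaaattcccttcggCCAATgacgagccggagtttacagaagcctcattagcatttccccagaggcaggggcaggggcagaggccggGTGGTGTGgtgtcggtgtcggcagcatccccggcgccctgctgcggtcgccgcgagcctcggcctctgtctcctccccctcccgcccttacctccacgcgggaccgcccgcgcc
NPC1: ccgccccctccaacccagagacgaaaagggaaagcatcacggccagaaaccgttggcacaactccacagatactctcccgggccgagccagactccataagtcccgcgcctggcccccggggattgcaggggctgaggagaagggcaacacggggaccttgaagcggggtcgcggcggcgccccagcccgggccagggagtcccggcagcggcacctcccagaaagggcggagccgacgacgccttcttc
ELOVL6: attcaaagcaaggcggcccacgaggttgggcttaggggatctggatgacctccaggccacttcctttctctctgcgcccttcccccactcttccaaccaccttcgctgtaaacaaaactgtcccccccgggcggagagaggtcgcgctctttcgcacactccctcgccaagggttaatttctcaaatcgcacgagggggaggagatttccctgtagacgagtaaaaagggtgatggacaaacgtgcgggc
INSIG1: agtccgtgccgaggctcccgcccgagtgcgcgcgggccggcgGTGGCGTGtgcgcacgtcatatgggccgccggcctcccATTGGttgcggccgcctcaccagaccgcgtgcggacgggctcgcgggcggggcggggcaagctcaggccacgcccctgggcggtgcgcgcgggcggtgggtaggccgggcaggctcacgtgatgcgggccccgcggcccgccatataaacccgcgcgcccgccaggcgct
STARD4: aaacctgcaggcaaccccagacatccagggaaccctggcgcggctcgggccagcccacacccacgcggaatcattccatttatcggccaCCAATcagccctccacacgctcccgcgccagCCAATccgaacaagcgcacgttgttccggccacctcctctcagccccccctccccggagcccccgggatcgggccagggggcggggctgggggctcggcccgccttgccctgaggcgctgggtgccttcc
HMGCS1: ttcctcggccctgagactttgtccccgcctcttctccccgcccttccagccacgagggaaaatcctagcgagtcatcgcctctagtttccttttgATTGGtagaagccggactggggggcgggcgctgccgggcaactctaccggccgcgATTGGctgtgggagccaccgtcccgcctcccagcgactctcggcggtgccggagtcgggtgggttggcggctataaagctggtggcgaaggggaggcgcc

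SCD held the first motif 114 bases before its start and CCAAT at 229 and 186 bases before it. INSIG1 held them 208 and 170 bases before its start. STARD4 and HMGCS1 held 2 CCAAT matches each, and no match to CACNCCAC in this window. NPC1 and ELOVL6 held neither motif there. RefSeq promoters of 300 bases (250 before and 50 after the start) were matched for 29 of the 33 members, the others being ACAT2, FDFT1, SQLE and FASN. CCAAT stood in 15 of the 19 sterol arm promoters (78.9%) and 4 of the 10 fatty acid arm promoters (40%), against 35.7% of 27305 promoters of the same length. CACNCCAC stood in 3 sterol arm promoters (INSIG1, SREBF2 and SC5D) and in 1 of the fatty acid arm (SCD), against 5.74% of all promoters. In the stretches shown no match of one motif overlaps a match of the other, and a match is a description of the sequence, not a site.

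Libraries held 22568739 to 37822331 estimated counts, of which the 33 genes took 0.27 to 0.303%. Libraries of a group differed by more than sampling noise in every pair, with a chi-square per gene of 2.14 to 8.14 (1 is sampling noise), and the highest value was between Sibjeondaebo-tang 500 µg/mL replicates 1 and 3. Of 12 astrocyte marker genes, 7 were tested and 6 had a mean under 1 CPM (counts scaled to library size). Vehicle held VIM at 5612 ± 78.1 CPM, CD44 at 2898 ± 71.8, GJA1 at 260 ± 3.77, SOX9 at 81.3 ± 2.35 and SLC1A3 at 22.3 ± 1.85 (SD, n = 3). GFAP was at 0.0152 ± 0.0264, S100B at 0.136 ± 0.0542, ALDH1L1 at 0.0252 ± 0.0218, AQP4 at 0.0383 ± 0.0663 and SLC1A2 at 0.189 ± 0.0984 CPM, and FABP7 was at 0 in the vehicle libraries. The labelled astrocytic line thus held some genes of the list at high levels and others at or near 0. The summed levels of 5 neuron, 5 oligodendrocyte and 5 hepatocyte markers were at most 67.6, 8.38 and 9.62 CPM in any library, and those of 5 myeloid markers 139 to 196. Most of the myeloid sum in vehicle was CD68, at 178 ± 6.62 CPM. PTPRC was at 9.17 and CSF1R at 2.93 CPM there, and AIF1 and CX3CR1 were at 0. Library scaling factors from the trimmed mean of M-values (TMM) were 0.96 to 0.971 in vehicle and 0.991 to 1.02 in treated libraries. Without them the median of all genes against vehicle moved from between -0.01 and 0.01 to between 0.05 and 0.07 on the log2 scale.

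All levels are TMM-scaled CPM unless a log2 scale is named. Per kilobase of exons, vehicle cells held most of ACLY (98.5 CPM), SCD (52.2) and INSIG1 (48.2), then CYP51A1 (41.7) and FASN (33.4). The lowest were MVK (1.82), HSD17B7 (1.2) and TM7SF2 (0.248). TM7SF2, a sterol C14 reductase gene, had only 16 to 37 counts per library, so its interval was the widest of the 33.

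The first question was how the genes moved with dose within the replicated formulas, where no vehicle library is needed. At 500 against 20 µg/mL of both formulas, SCD, which puts the first double bond into saturated fatty acids, and NPC1, which exports cholesterol from lysosomes, were the members called lower with the largest changes: they fell by 13.6% and by 13.2%. ELOVL6, which extends palmitate, rose by 10.6%. The changes were small and ran in both directions. In the sterol arm 1 gene rose, 3 fell and 18 did not pass the test, and in the fatty acid arm 1 rose, 3 fell and 7 did not pass it. A gene was called where its Benjamini-Hochberg adjusted p from edgeR's quasi-likelihood test was under 0.05, over 17839 tested genes. Of all of these, 12% were called (6.33% higher and 5.69% lower), beside 8 of the 33. The median log2 fold change was -0.03 in each arm, against -0.0015 over all tested genes.

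**Figure D1:**
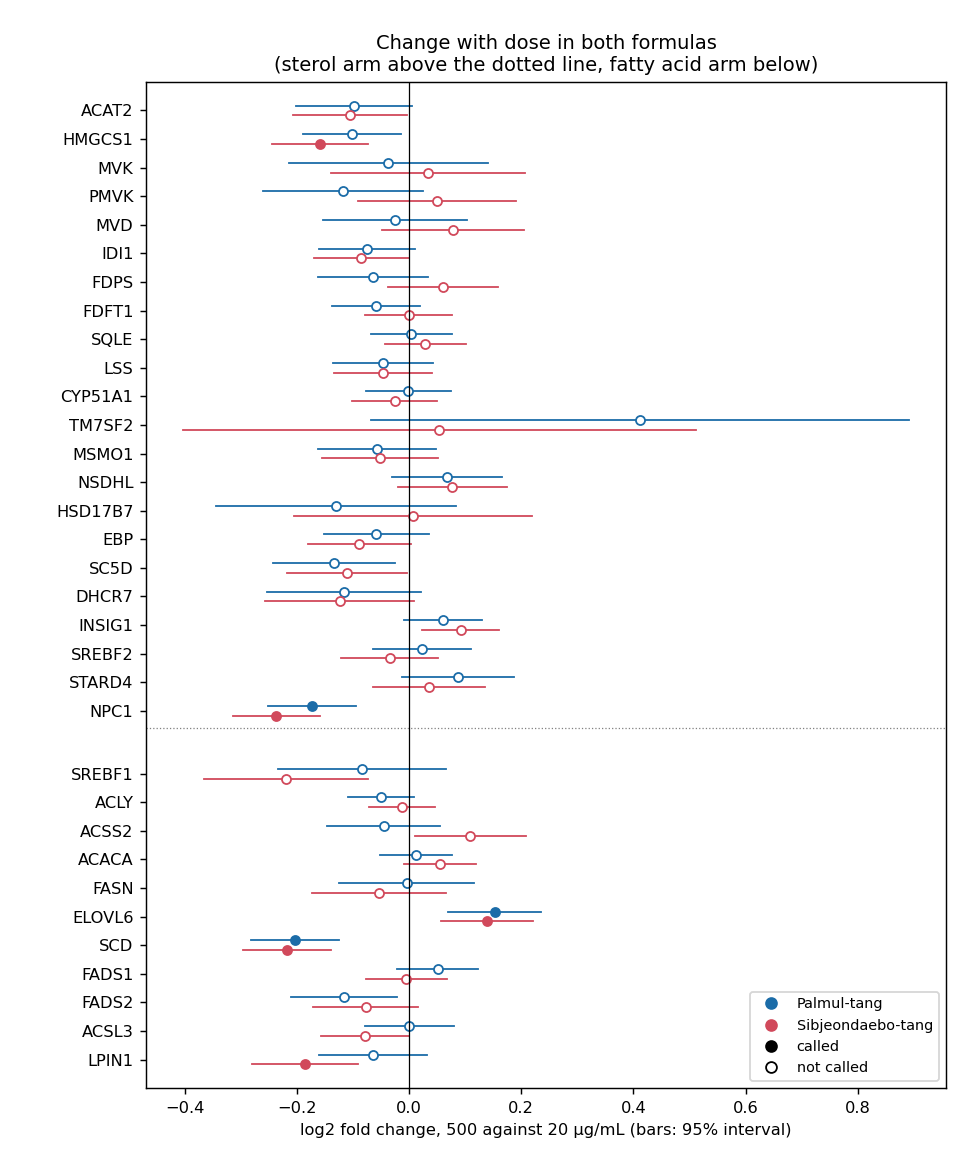
Log2 fold change of each of the 33 genes at 500 against 20 µg/mL (x axis) in Palmul-tang (blue) and Sibjeondaebo-tang (red), 3 libraries per dose, with 95% intervals from edgeR. Filled points were called. NPC1, SCD and ELOVL6 are called in both formulas, and TM7SF2 has the widest interval.

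SCD (chr10:100347124-100364834, plus strand) gave 247, 257 and 259 CPM at 500 µg/mL of Palmul-tang and 297, 289 and 292 at 20 µg/mL. Sibjeondaebo-tang libraries gave 253, 261 and 257 at 500 and 311, 277 and 308 at 20. The 6 libraries at 500 µg/mL all lay below the 6 at 20 µg/mL. Of the 33 genes, 3 had no overlap between these libraries, where 6.6% of all tested genes had none. Within Palmul-tang 13 of the 33 had no overlap between these doses, beside 23.6% of all genes. Within Sibjeondaebo-tang 10 of the 33 had none, beside 18.9%. The log2 fold change was -0.20 in Palmul-tang (SE 0.0388, edgeR adjusted p = 0.00053) and -0.22 in Sibjeondaebo-tang (SE 0.0386, adjusted p = 0.00016). Over both formulas it was -0.21 (95% interval -0.27 to -0.15, adjusted p = 4.13e-07). At 100 µg/mL SCD gave 284, 280 and 286 CPM in Palmul-tang and 282, 263 and 288 in Sibjeondaebo-tang, between the other doses for most libraries. SCD stayed called in each of the 18 alternatives run on the pooled comparison, with log2 fold changes of -0.24 to -0.20.

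NPC1 (chr18:23506184-23586898, minus strand) gave 140, 146 and 151 CPM at 500 µg/mL of Palmul-tang and 163, 161 and 169 at 20. In the Sibjeondaebo-tang libraries it stood at 143, 146 and 156 at 500 and 175, 173 and 176 at 20. No library at 500 reached the lowest at 20 µg/mL. The log2 fold change was -0.17 in Palmul-tang (adjusted p = 0.00348), -0.24 in Sibjeondaebo-tang (adjusted p = 3.88e-05) and -0.20 over both (SE 0.0271, adjusted p = 5.98e-07). At 100 µg/mL the levels were 171, 167 and 168 CPM in Palmul-tang and 175, 169 and 166 in Sibjeondaebo-tang, within the range of the vehicle libraries (164, 162 and 178). NPC1 shares 604 exon bases with RMC1 on the opposite strand in GENCODE 29, and whether counting used strand is not given in the sources used here.

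ELOVL6 (chr4:110045846-110199199, minus strand) gave 56.7, 59.3 and 59.4 CPM at 500 µg/mL of Palmul-tang and 50.1, 54.5 and 53.2 at 20. With Sibjeondaebo-tang the levels were 56.5, 58.4 and 55.4 at 500 and 49.6, 52.8 and 52.1 at 20. Every library at 500 lay above every library at 20 µg/mL. The log2 fold change was 0.15 in Palmul-tang (adjusted p = 0.02), 0.14 in Sibjeondaebo-tang (adjusted p = 0.0319) and 0.15 over both formulas (SE 0.0289, adjusted p = 0.000413). In a single formula the call was less firm: it was lost in 4 of 12 alternatives in Palmul-tang (adjusted p up to 0.165) and in 7 of 12 in Sibjeondaebo-tang (up to 0.201). Over both formulas it was lost in none of 18.

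Among the enzymes of sterol synthesis, HMGCS1, which makes HMG-CoA early in the route, gave 57.7, 53.4 and 56.5 CPM at 500 µg/mL of Palmul-tang and 62.8, 59.8 and 57.2 at 20. Sibjeondaebo-tang libraries gave 56.2, 57.6 and 52.6 at 500 and 62, 63.6 and 60.1 at 20. The Sibjeondaebo-tang groups did not overlap and the Palmul-tang groups did. HMGCS1 fell by 8.63% over both formulas (log2 fold change -0.13, SE 0.0301, adjusted p = 0.00242), while Sibjeondaebo-tang alone gave -0.16 (adjusted p = 0.0159) and Palmul-tang alone -0.10 (adjusted p = 0.204). GENCODE 29 places an antisense gene over 703 of its exon bases.

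SC5D, a late desaturase of the sterol ring, gave 35.2, 38.1 and 35.5 CPM at 500 and 38.9, 41.4 and 39 at 20 µg/mL of Palmul-tang. In the Sibjeondaebo-tang libraries it stood at 39.6, 35 and 33.7 at 500 and 39, 37.8 and 40.3 at 20, with overlapping groups. Over both formulas it fell by 8.13% (log2 fold change -0.12, SE 0.0376, adjusted p = 0.027), a call lost in 6 of 18 alternatives, each of them 1 library left out, with an adjusted p up to 0.0812.

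INSIG1 was the 1 sterol arm gene called higher. It gave 147, 159 and 152 CPM at 500 and 146, 151 and 142 at 20 µg/mL of Palmul-tang, and 160, 159 and 158 at 500 and 152, 146 and 150 at 20 µg/mL of Sibjeondaebo-tang. The groups overlapped in Palmul-tang and not in Sibjeondaebo-tang. The rise of 5.42% (log2 fold change 0.08, SE 0.0242, adjusted p = 0.0335) was lost in 10 of 18 alternatives, with an adjusted p up to 0.132.

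In the fatty acid arm, LPIN1, which makes diacylglycerol and also acts in the nucleus, gave 37.6, 38.9 and 36 CPM at 500 and 38.6, 39 and 40 at 20 µg/mL of Palmul-tang. With Sibjeondaebo-tang the levels were 36.5, 37.5 and 37.2 at 500 and 40.8, 42.2 and 43.5 at 20, with no overlap. Its log2 fold change was -0.19 in Sibjeondaebo-tang (SE 0.0464, adjusted p = 0.00919) and -0.12 over both formulas (adjusted p = 0.00921). The difference between the 2 formulas' dose changes, -0.12, had an unadjusted p of 0.0747 and an adjusted p of 1 in edgeR's test.

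FADS2, which desaturates polyunsaturated fatty acids, gave 65.5, 67.4 and 67.1 CPM at 500 and 71.9, 74.7 and 70.1 at 20 µg/mL of Palmul-tang. Sibjeondaebo-tang libraries gave 63.7, 67.6 and 70.3 at 500 and 73.4, 65.4 and 73.7 at 20. The Palmul-tang groups were apart and the Sibjeondaebo-tang groups overlapped. Over both formulas FADS2 fell by 6.47% (adjusted p = 0.0485), and the call was lost in 10 of 18 alternatives (adjusted p up to 0.135). FADS2 and FADS1 share 490 exon bases on opposite strands.

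The transcription factor genes themselves were not called. SREBF2 had a log2 fold change of -0.01 at 500 against 20 µg/mL of both formulas, with a 95% interval of -0.07 to 0.06. SREBF1 had -0.15, with an interval of -0.26 to -0.05 and an adjusted p of 0.053. SREBF1 gave 35.8, 38.5 and 45.7 CPM at 500 µg/mL of Sibjeondaebo-tang and 49.8, 41.2 and 48.5 at 20, with overlap. FASN, the fatty acid synthase, had -0.03 (interval -0.11 to 0.06).

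ACAT2, which joins 2 acetyl-CoA at the head of the sterol route, is given beside its neighbour. In GENCODE 29 its exons share 1141 bases with an entry named SOD2 and 1458 with SOD2-OT1, both on the opposite strand and neither listed in the table, and 397 with TCP1. The SOD2 gene of the table (mitochondrial superoxide dismutase) gave 337, 314 and 328 CPM at 500 and 145, 141 and 137 at 20 µg/mL of Palmul-tang. ACAT2 gave 41.3, 41.8 and 42.2 at 500 and 40.3, 47.5 and 46.4 at 20. So SOD2 rose by 1.21 on the log2 scale (adjusted p = 2.1e-21), where ACAT2 had -0.10 (adjusted p = 0.338). In Sibjeondaebo-tang the values were 1.38 for SOD2 and -0.11 for ACAT2 (adjusted p = 0.265). In these dose comparisons ACAT2 was not called, and its estimates were below 0 where SOD2 rose. Its share of reads from the opposite strand was not tested.

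Related genes outside the 33 were read from lists of 25 sterol and 28 fatty acid genes, of which 24 and 24 were tested. At 500 against 20 µg/mL of both formulas, 1 of the sterol genes rose and 4 fell, and 1 of the fatty acid genes rose and 3 fell, beside 6.33% of all genes called higher and 5.69% lower. ABCA1, the cholesterol exporter of the cell membrane, rose from 57.5 to 64.7 CPM (log2 fold change 0.17, adjusted p = 0.000184). MYLIP, a ubiquitin ligase that targets lipoprotein receptors, fell from 13 to 10.5 (-0.31, adjusted p = 1.4e-05). NPC2, the lysosomal partner of NPC1, fell from 133 to 119 (-0.15, adjusted p = 0.000263), and MBTPS1, the protease that makes the first cut in SREBPs, fell from 162 to 151 (-0.10, adjusted p = 0.00256).

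Of the fatty acid genes outside the 33, ACSL5, an acyl-CoA synthetase, rose most. It gave 14.8, 14 and 13.7 CPM at 500 and 9.81, 10.5 and 10.6 at 20 µg/mL of Palmul-tang, and 14.4, 13.5 and 15.3 against 10.7, 10.3 and 10.5 in Sibjeondaebo-tang, with no overlap. Its log2 fold change over both was 0.46 (adjusted p = 8.83e-08), larger than that of any called member. HACD2, a dehydratase of fatty acid elongation, fell from 72.8 to 63.8 (-0.19, adjusted p = 3.52e-05). LPIN2, a relative of LPIN1, fell from 35.8 to 31.7 (-0.17, adjusted p = 0.000592), and ELOVL4, which makes very long chains, fell from 17.9 to 15.2 (-0.24, adjusted p = 0.0128).

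Within a single formula, 5.3% of all genes were called in Palmul-tang at 500 against 20 µg/mL (2.83% higher and 2.47% lower) and 6.24% in Sibjeondaebo-tang (3.45% and 2.79%). In Palmul-tang the sterol arm had NPC1 lower, and the fatty acid arm had ELOVL6 higher and SCD lower. In Sibjeondaebo-tang the sterol arm had HMGCS1 and NPC1 lower, and the fatty acid arm had ELOVL6 higher and SCD and LPIN1 lower. Without Sibjeondaebo-tang 500 replicate 3, 5 fatty acid arm genes were called in place of 3, and without Sibjeondaebo-tang 20 replicate 3, 1. At 100 against 20 µg/mL of both formulas edgeR and DESeq2 called none of the 33, where edgeR called 0.516% of all genes (0.426% higher and 0.0897% lower), and 4 of the 33 had an unadjusted p under 0.05 in edgeR, as did 6.29% of all genes.

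The formulas were also compared with each other over all doses. Sibjeondaebo-tang against Palmul-tang gave 0 called members and 1 called gene in all (0.00561%) with edgeR, and 1 of the 33 (INSIG1, log2 difference 0.05) had an unadjusted p under 0.05, as did 4.26% of all genes. DESeq2 called none of the 33 either. The median half-width of the 95% interval was 0.06 in the sterol arm and 0.05 in the fatty acid arm. For the difference in dose change between the formulas, 0% of genes and 0 of the 33 were called, and 1 of the 33 (ACSS2, log2 difference 0.15) had an unadjusted p under 0.05, as did 4.01% of all genes.

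The other 3 extracts have 1 library a dose, so a dose within 1 extract has no replicate check. SCD gave 248, 277 and 310 CPM at 500, 100 and 20 µg/mL of Samul-tang. It gave 226, 244 and 278 in Poria Cocos and 234, 267 and 304 in Atractylodis Rhizoma. In each of these extracts the order of the 3 doses was the same, with the highest dose lowest.

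**Figure D2:**
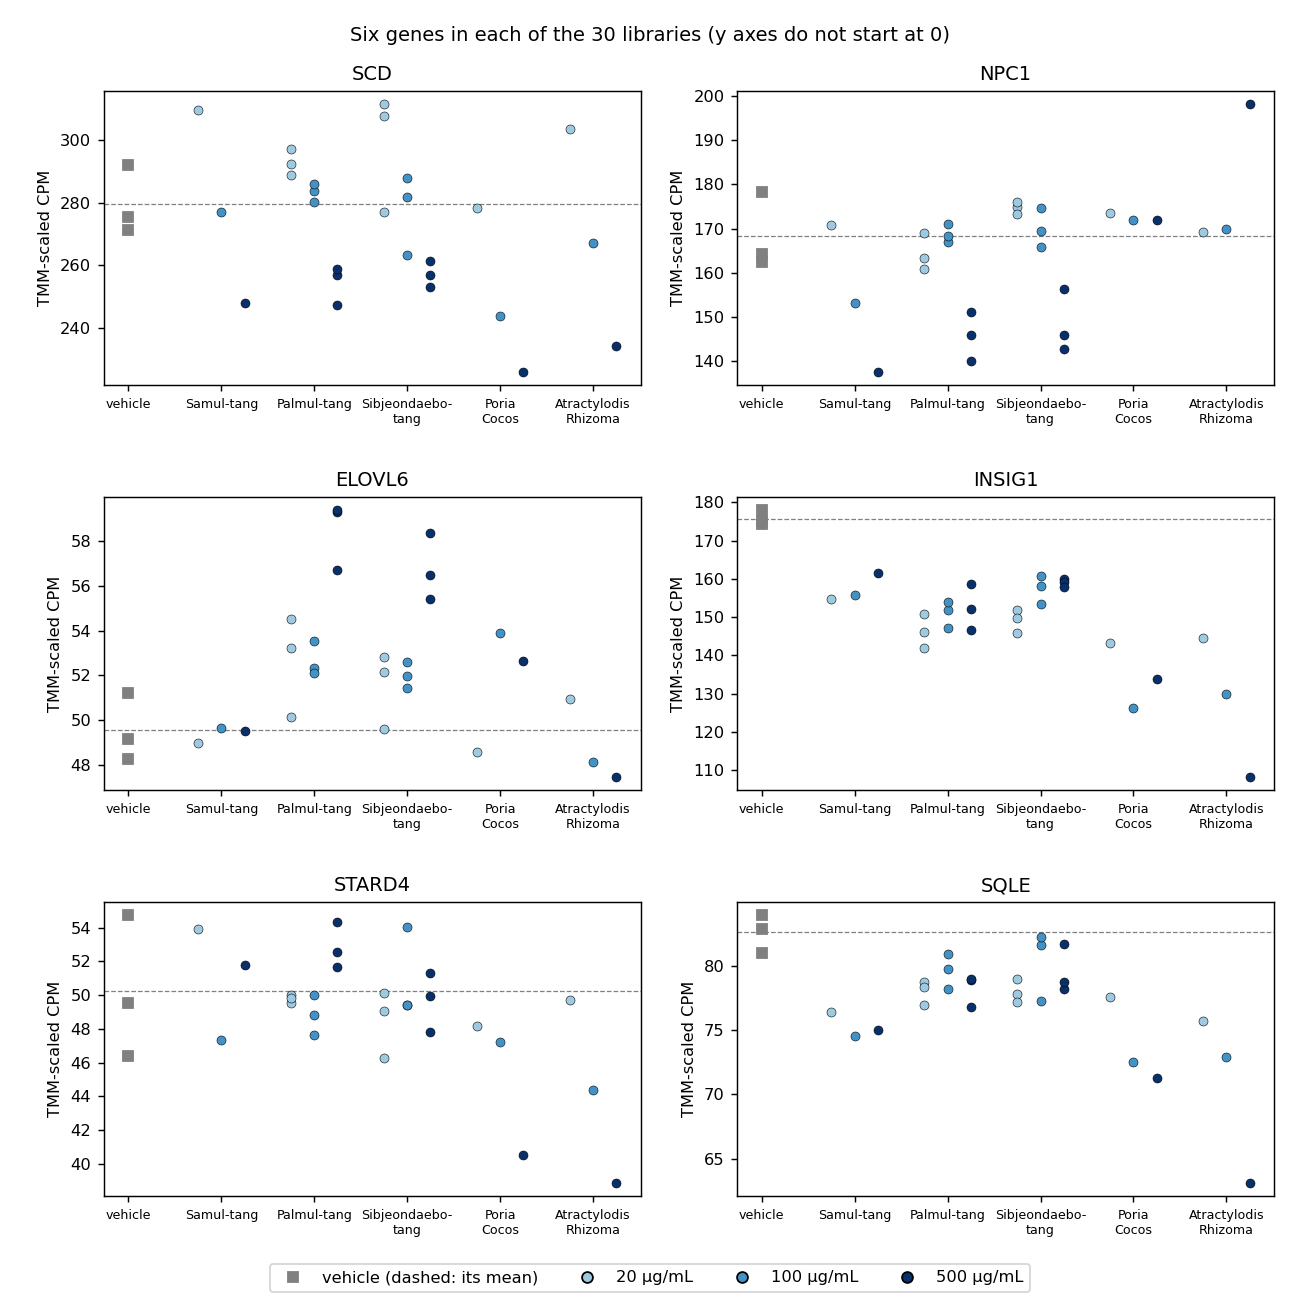
TMM-scaled CPM (y axes, not starting at 0) of 6 genes in each of the 30 libraries, by extract and dose; squares are vehicle and the dashed line its mean. SCD is lowest at 500 µg/mL in each extract, NPC1 is low at 500 µg/mL in the 3 water extracts and not in the ethanol extracts, and INSIG1, STARD4 and SQLE are lowest in the Atractylodis Rhizoma library at 500 µg/mL.

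NPC1 went apart by extract. Samul-tang gave 138, 153 and 171 CPM from 500 to 20 µg/mL, lowest at 500 µg/mL as in both formulas. Poria Cocos gave 172, 172 and 174, and Atractylodis Rhizoma 198, 170 and 169. The Atractylodis Rhizoma library at 500 µg/mL was the highest of all 30 for NPC1.

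INSIG1 was lowest in the same library, which gave 108 CPM at 500 µg/mL against 130 at 100 and 145 at 20. Poria Cocos gave 134, 126 and 143, and Samul-tang 162, 156 and 155. STARD4, which carries cholesterol between membranes, gave 38.9, 44.4 and 49.7 in Atractylodis Rhizoma and 40.5, 47.2 and 48.2 in Poria Cocos. SQLE, which oxidises squalene, gave 63.1, 72.9 and 75.7 in Atractylodis Rhizoma and 71.3, 72.5 and 77.6 in Poria Cocos. Of these 3 genes in the 2 ethanol extracts, all but INSIG1 in Poria Cocos were lowest at 500 µg/mL.

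A comparison of 500 with 20 µg/mL over both ethanol extracts was added after seeing the data, with 2 libraries a dose and the spread estimated from the replicated groups. SQLE (log2 fold change -0.19, edgeR adjusted p = 0.0161), INSIG1 (-0.26, adjusted p = 0.000295), STARD4 (-0.30, adjusted p = 0.00488) and SCD (-0.34, SE 0.0476, adjusted p = 2.37e-05) were called lower, where 1.05% of all genes were called (0.6% higher and 0.448% lower). No member was called higher. The median was -0.13 in each arm, against 0.0010 over all tested genes, and 28 of the 33 genes had a negative value. SCD stayed called in the 9 alternatives run. In this comparison leaving out 1 library took its whole extract out, so 1 library a dose was left. Without Atractylodis Rhizoma the SQLE and INSIG1 calls were lost, and their log2 fold changes were -0.12 and -0.10. The STARD4 call was lost without either extract, with log2 fold changes of -0.36 to -0.25.

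The difference in dose change between the ethanol extracts and both formulas was tested the same way, also after seeing the data; 1.95% of all genes were called (0.835% with a positive and 1.12% with a negative difference). INSIG1 differed by -0.34 (SE 0.0489, adjusted p = 2.1e-05), STARD4 by -0.36 (adjusted p = 0.00154), SQLE by -0.21 (adjusted p = 0.0166) and NPC1 by 0.31 (adjusted p = 0.000307) on the log2 scale. Each of these calls was lost when either Atractylodis Rhizoma library was left out, which left Poria Cocos as the 1 ethanol extract. That of SQLE was also lost with no filter on low counts (edgeR adjusted p = 0.0535). Without Atractylodis Rhizoma the difference for STARD4 was -0.31, near its full value. Those of INSIG1, SQLE and NPC1 were smaller, at -0.18, -0.14 and 0.19. Solvent, herb and code set differ together between these groups and cannot be told apart.

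Over all 5 extracts, 9 libraries at 500 and 9 at 20 µg/mL, 7 sterol arm and 5 fatty acid arm genes were called lower and none higher, where 9.46% of all genes were called (4.91% higher and 4.55% lower). This comparison, too, was added after seeing the data. SCD was lower in each of the 9 libraries at 500 µg/mL than in any of the 9 at 20 µg/mL, at 226 to 261 CPM against 277 to 311 (log2 fold change -0.28, 95% interval -0.34 to -0.23, adjusted p = 3.58e-10). SCD was the 1 member of the 33 with no overlap between these libraries, where 0.762% of all genes had none (0.46% higher and 0.303% lower). The other fatty acid arm genes were SREBF1 (-0.22, adjusted p = 0.00332), FADS2 (-0.17, adjusted p = 0.000247), LPIN1 (-0.12, adjusted p = 0.0137) and FADS1 (-0.11, adjusted p = 0.00259), all with overlap.

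The 7 sterol arm genes called lower over all extracts were ACAT2 (-0.14), HMGCS1 (-0.14), STARD4 (-0.11), LSS (-0.10), MSMO1 (-0.10), NPC1 (-0.10) and SQLE (-0.08). LSS closes squalene epoxide into lanosterol, and MSMO1 acts on methyl groups of sterols later in the route. ACAT2 and HMGCS1 kept their call in all 24 alternatives, with adjusted p up to 0.031 and 0.00567. MSMO1 (edgeR adjusted p = 0.0491) lost its call in 15 of the 24 and SQLE (0.0379) in 9. Some of these losses came with only 1 library of a replicated formula left out. STARD4 lost its call in 4, and LSS and NPC1 in 2 each. Leaving out either of these doses of an extract with 1 library a dose again took that extract out of the comparison. The number of sterol arm calls then fell to 3 without Poria Cocos and to 4 without Atractylodis Rhizoma. NPC1 and FADS1 lost their calls without Samul-tang (edgeR adjusted p up to 0.321 and 0.118).

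**Figure D3:**
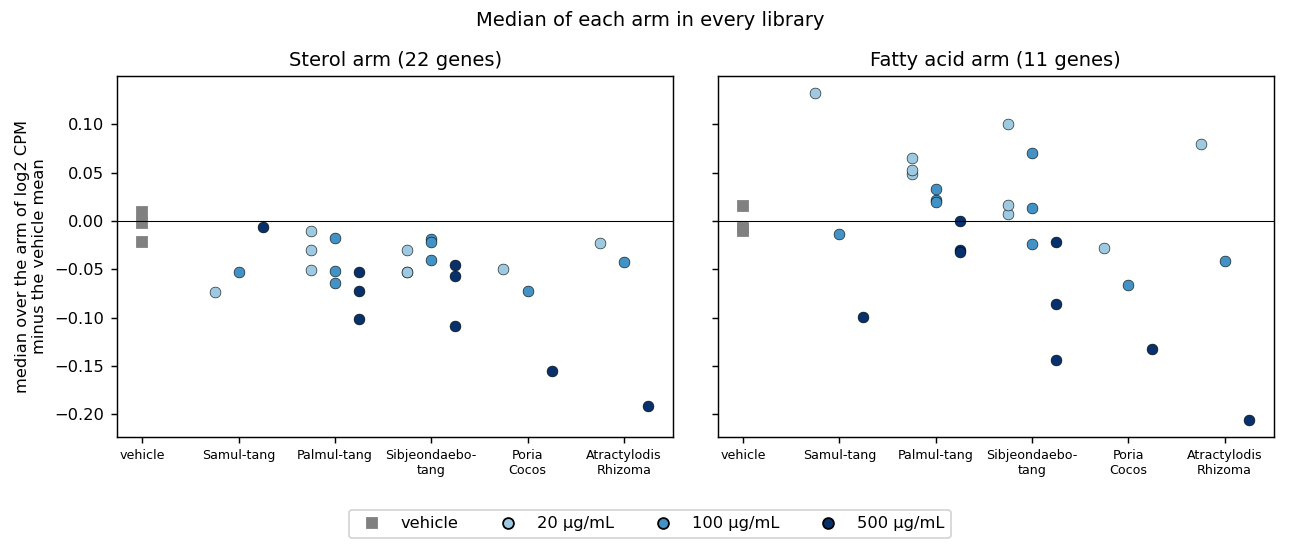
Median over each arm of log2 CPM minus the vehicle mean (y axis), 1 point per library, by extract and dose. In the fatty acid arm the libraries at 500 µg/mL lie below those at 20 µg/mL of the same extract, down to -0.21 in Atractylodis Rhizoma; in the sterol arm the 2 ethanol libraries at 500 µg/mL are lowest, at -0.16 and -0.19.

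The arm medians show the same by library. The fatty acid arm's median log2 difference from the vehicle mean was -0.10 in Samul-tang at 500 µg/mL and 0.13 at 20. It was -0.02 ± 0.0177 at 500 and 0.06 ± 0.00847 at 20 in Palmul-tang, and -0.08 ± 0.0611 and 0.04 ± 0.0508 in Sibjeondaebo-tang (SD, n = 3). Poria Cocos gave -0.13 and -0.03, and Atractylodis Rhizoma -0.21 and 0.08. In the sterol arm Samul-tang ran the other way, with -0.01 at 500 and -0.07 at 20, where Poria Cocos gave -0.16 and -0.05 and Atractylodis Rhizoma -0.19 and -0.02. The 5 extracts thus shared the order of the highest and lowest dose in the fatty acid arm and not in the sterol arm.

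Against vehicle, differences in the 33 genes stood within a table where 25.1 to 29.1% of all genes were called. No overlap with vehicle was common too. At 500 µg/mL it held for 18 of the 33 in Palmul-tang and 13 in Sibjeondaebo-tang, beside 42.5% and 35.1% of all tested genes. At 500 µg/mL of Palmul-tang (27.8% of genes called, 12.9% higher and 14.9% lower) 6 sterol arm genes were lower and none higher, and 3 fatty acid arm genes were higher and 4 lower. At 500 µg/mL of Sibjeondaebo-tang (25.1%, as 11.7% and 13.3%) the counts were 5 lower and 0 higher, and 3 higher and 5 lower. Counted without TMM factors, the sterol arm split became 1 higher and 4 lower in Palmul-tang and 2 and 4 in Sibjeondaebo-tang, and the fatty acid arm 4 higher and 2 lower in each. This scaling moved the calls over all genes the same way, to 3524 higher and 1707 lower in Palmul-tang and 3330 and 1479 in Sibjeondaebo-tang, from 2309 and 2658, and 2093 and 2379.

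INSIG1 gave 175, 178 and 174 CPM in vehicle, above every treated library. Its log2 fold change was -0.20 at 500 µg/mL of Palmul-tang (adjusted p = 2.08e-05), -0.14 of Sibjeondaebo-tang (adjusted p = 0.00152) and -0.25 at 20 µg/mL of both (adjusted p = 5.93e-08). It was lower still over the 3 doses of Poria Cocos (-0.39, adjusted p = 3.2e-10) and Atractylodis Rhizoma (-0.47, adjusted p = 3.61e-12). These INSIG1 calls held in every alternative run, scaling included. DHCR7, which makes cholesterol from its last precursor, gave 44.9, 40.2 and 44 CPM in vehicle, 31.5, 36.1 and 35.6 at 500 µg/mL of Palmul-tang and 32.9, 35.3 and 41.3 of Sibjeondaebo-tang. Sibjeondaebo-tang replicate 3 overlapped vehicle. DHCR7 had -0.32 (adjusted p = 0.000445) and -0.24 (adjusted p = 0.00692).

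HMGCS1 gave 63.5, 65.9 and 64.9 CPM in vehicle, above all libraries at 500 µg/mL, with log2 fold changes of -0.21 in Palmul-tang and -0.22 in Sibjeondaebo-tang (adjusted p = 0.000266 and 0.000148). NPC1 was lower at 500 µg/mL of both (-0.21 and -0.18, adjusted p = 9e-05 and 0.000461). Neither was called at 100 or 20 µg/mL of both formulas. MVD, a mevalonate route enzyme, and EBP, a sterol isomerase, were also called in Palmul-tang, and IDI1, which isomerises isopentenyl diphosphate, in Sibjeondaebo-tang. These 3 lost their calls without TMM factors (adjusted p 0.16, 0.142 and 0.236).

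In the fatty acid arm, ACLY, which makes cytosolic acetyl-CoA from citrate, gave 516, 513 and 512 CPM in vehicle and 460, 460 and 441 at 500 µg/mL of Palmul-tang. In the Sibjeondaebo-tang libraries it stood at 457, 450 and 468. The log2 fold changes were -0.18 and -0.17 (adjusted p = 1.09e-05 and 4.36e-05), with no overlap. ACACA, whose enzyme makes malonyl-CoA from acetyl-CoA, stood the other way, at 151, 147 and 151 in vehicle, 165, 167 and 171 in Palmul-tang and 170, 170 and 179 in Sibjeondaebo-tang. Its log2 fold changes were 0.16 and 0.21 (adjusted p = 0.000182 and 6.87e-06).

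FASN gave 312, 302 and 325 CPM in vehicle and 266, 278 and 271 at 500 µg/mL of Palmul-tang. It gave 264, 254 and 308 at 500 µg/mL of Sibjeondaebo-tang, where replicate 3 reached the vehicle range. That library was also the highest of its group for DHCR7 (41.3) and SREBF1 (45.7). Its chi-square per gene was 8.14 and 7.42 against the other libraries of the group, beside 2.64 between those. FASN had log2 fold changes of -0.21 and -0.19 (edgeR adjusted p = 0.0109 and 0.022), and without TMM factors the adjusted p was 0.0537 and 0.0995. FADS2 gave 78.2, 76.3 and 81.4 in vehicle, above all 6 libraries at 500 µg/mL, with -0.24 and -0.23 (adjusted p = 0.000167 and 0.00031). ELOVL6 gave 49.1, 51.2 and 48.3 in vehicle, below all 6, with 0.24 and 0.20 (adjusted p = 3.43e-05 and 0.000475).

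SCD gave 276, 271 and 292 CPM in vehicle. It was lower at 500 µg/mL (-0.14 in Palmul-tang and -0.12 in Sibjeondaebo-tang, adjusted p = 0.00734 and 0.0182), but without TMM factors these calls were lost (adjusted p 0.106 and 0.203). At 20 µg/mL of both formulas its libraries, 277 to 311, overlapped vehicle and it was not called. FADS1, which makes arachidonate from its precursor, was called higher in Palmul-tang (0.13, adjusted p = 0.00612). ACSS2, which makes acetyl-CoA from acetate, was called higher in Sibjeondaebo-tang (0.15, adjusted p = 0.0283), and LPIN1 lower (-0.13, adjusted p = 0.0392). LPIN1 was lost in 9 of 12 alternatives.

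**Figure D4:**
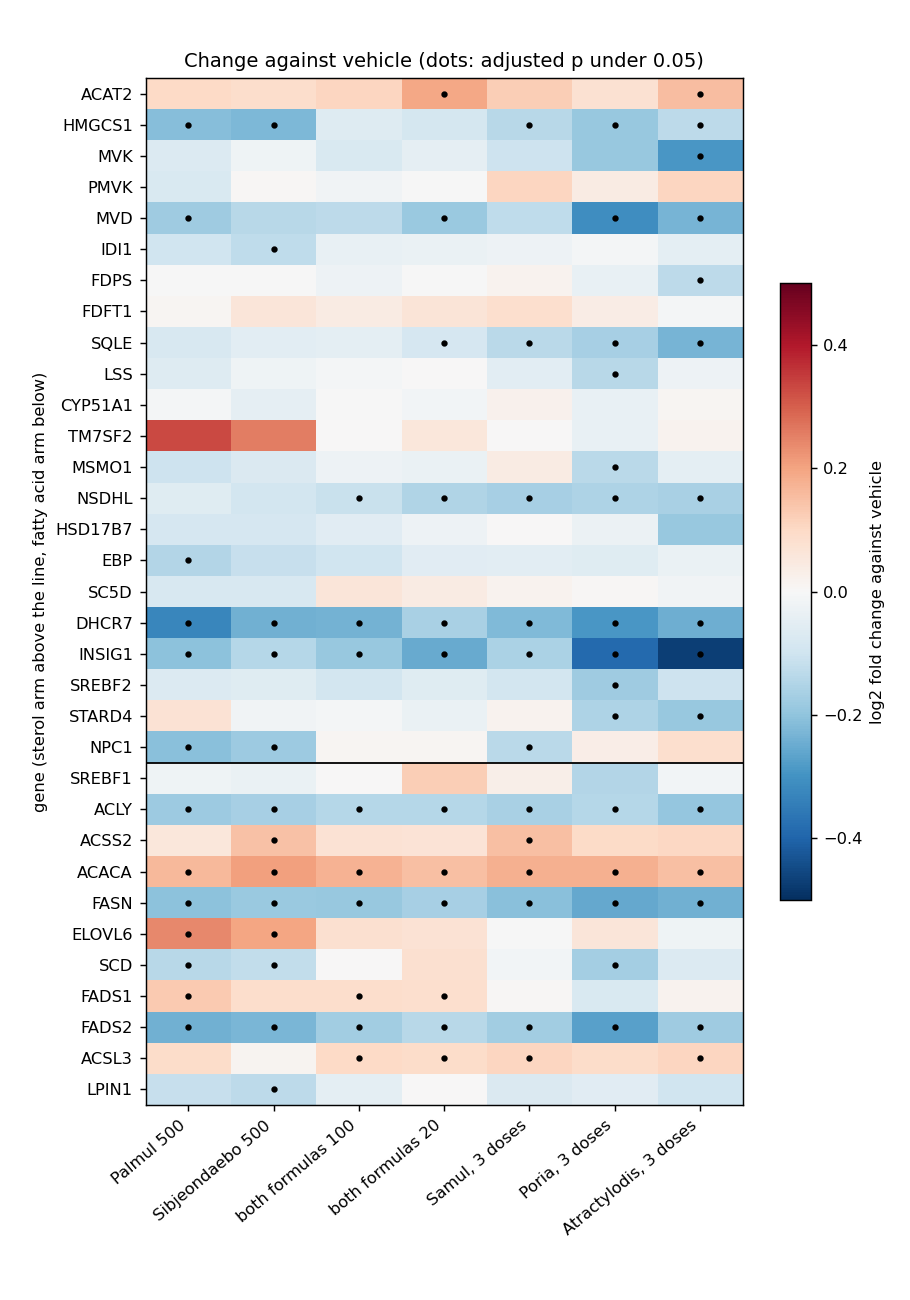
Log2 fold change against vehicle (colour) of the 33 genes in 7 comparisons that share the 3 vehicle libraries; dots mark an adjusted p under 0.05. INSIG1, DHCR7, ACLY and FASN are dotted lower and ACACA is dotted higher in all 7 columns, and FADS2 is dotted lower in all 7.

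At 100 µg/mL of both formulas (29.1% of genes called, 13.3% higher and 15.7% lower) the sterol arm had 0 higher and 3 lower, and the fatty acid arm 3 and 3. At 20 µg/mL (29.1%, as 13.1% and 15.9%) the counts were 1 higher and 5 lower, and 3 and 3. The 1 sterol gene higher at 20 µg/mL was ACAT2, with 40.3, 47.5 and 46.4 CPM in Palmul-tang and 45.3, 45.4 and 43.2 in Sibjeondaebo-tang against 39.9, 38.9 and 38.4 in vehicle (log2 fold change 0.19, adjusted p = 0.00109). SOD2 was also higher there, by 0.30. In the single-library extracts at 20 µg/mL, ACAT2 gave 43.3 CPM in Samul-tang, 44 in Poria Cocos and 46.5 in Atractylodis Rhizoma. SOD2 gave 112, 114 and 114 CPM in these libraries, where its vehicle mean was 112. The link between the 2 genes was not tested. MVD, SQLE, NSDHL, DHCR7 and INSIG1 were lower at 20 µg/mL of both formulas. Of these 5, INSIG1 was the 1 still called without TMM factors, where the sterol arm split was 2 higher and 1 lower and the fatty acid arm 7 and 1. At 100 µg/mL that split was 2 and 2, and 5 and 3. Over all genes, calls without TMM factors were 3812 higher and 1818 lower at 20 µg/mL and 3746 and 1809 at 100.

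Over the 3 doses of each single-library extract, Samul-tang (27.7% of genes called, 12% higher and 15.7% lower) had 0 sterol arm genes higher and 6 lower, and 3 fatty acid arm genes higher and 3 lower. Poria Cocos (27.3%, as 12.1% and 15.3%) had 0 and 10, and 1 and 4. Atractylodis Rhizoma (27.7%, as 12.4% and 15.3%) had 1 and 9, and 2 and 3. Its 1 sterol arm gene called higher was ACAT2 (log2 fold change 0.15, edgeR adjusted p = 0.0244), a call lost in 3 of 12 alternatives. The sterol arm median was -0.04 in Samul-tang, -0.10 in Poria Cocos and -0.08 in Atractylodis Rhizoma, against -0.0023, -0.0081 and -0.0058 over all tested genes. Without TMM factors the sterol arm splits were 2 and 1, 3 and 6, and 2 and 4, and those of the fatty acid arm 3 and 1, 4 and 4, and 3 and 2. Over all genes the splits were then 3908 and 1669, 3585 and 1628, and 3624 and 1695. These 3 comparisons average over the doses of an extract. Their error comes from the spread of the replicated groups, and the spread between doses does not enter it.

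The members with the smallest p in each of these extracts were these. In Samul-tang they were ACLY (-0.16), ACACA (0.18), INSIG1 (-0.16) and SQLE (-0.13). In Poria Cocos they were INSIG1 (-0.39), FADS2 (-0.27), ACACA (0.18) and ACLY (-0.14). In Atractylodis Rhizoma they were INSIG1 (-0.47), ACLY (-0.19), SQLE (-0.23) and ACACA (0.15). ACLY gave 457, 456 and 464 CPM from 500 to 20 µg/mL of Samul-tang, 469, 453 and 475 of Poria Cocos and 430, 464 and 454 of Atractylodis Rhizoma, all below vehicle. ACACA gave 170, 161 and 178 in Samul-tang, 174, 165 and 169 in Poria Cocos and 160, 165 and 175 in Atractylodis Rhizoma, all above vehicle. FADS2 gave 61.7, 66.2 and 68 in Poria Cocos, and SQLE gave 75, 74.5 and 76.4 in Samul-tang against 82.9, 81 and 83.9 in vehicle. None of these libraries overlapped vehicle. That held for 15 of the 33 in Samul-tang, 15 in Poria Cocos and 14 in Atractylodis Rhizoma. Of all tested genes it held for 38.9%, 39.4% and 40.9%.

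In Poria Cocos MVD (-0.31) and in Atractylodis Rhizoma MVK, the mevalonate kinase (-0.29), were also lower, the latter lost without TMM factors (adjusted p = 0.0564). SREBF2 was called lower in Poria Cocos (-0.18, adjusted p = 0.00213). Its libraries gave 78.4, 79.2 and 82.7 CPM from 500 to 20 µg/mL against 90.7, 87.5 and 93.2 in vehicle.

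Dose-matched, Poria Cocos against Atractylodis Rhizoma called 1.42% of all genes (0.718% higher and 0.701% lower) and none of the 33 in edgeR. Of the 33, 4 (FADS1, SCD, LSS and INSIG1) had an unadjusted p under 0.05, as did 12% of all genes, and DESeq2 called none. The log2 differences ran from -0.11 to 0.16 in the sterol arm and from -0.13 to 0.08 in the fatty acid arm, with a median half-width of the 95% interval of 0.10 in the sterol arm.

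The members not called in any comparison above were PMVK, FDFT1, CYP51A1, TM7SF2 and HSD17B7. FDFT1, the squalene synthase, ranged from 85.2 CPM in Atractylodis Rhizoma at 500 µg/mL to 103 in Samul-tang at 100. CYP51A1, the lanosterol demethylase, ranged from 138 to 155, and its exons share 2844 bases with a same-strand entry of GENCODE 29 that the table does not list. PMVK, the phosphomevalonate kinase, ranged from 18.5 to 24.7 and HSD17B7, a sterol ketoreductase, from 4.23 to 6.4. These ranges are over all 30 libraries.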

How the data were processed

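RNA-seq libraries of SW1783 cells (MGIEasy RNA Directional kit, 100 bp paired-end reads, per the labels' protocols) were quantified by the authors as estimated counts per gene. The submitters' processing notes name FastQC 0.11.9, Trim Galore 0.6.5, STAR 2.7.3a, RSEM 1.3.3 and the build hg38 (GRCh38). The annotation release, the strand setting and any filter are not given in the sources used here. The deposited estimated counts (24.0% of values above 0 were not whole) were rounded. Of 279 columns, 30 match the samples and 249 were not used. Symbols were found for 57055 of 60675 gene IDs, in a gene name table and GENCODE 29, which also gave positions (GRCh38), exon lengths and overlaps; the table's own annotation may differ from it.

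Genes were kept by filterByExpr (17839) and fitted over 30 libraries in 16 groups with edgeR 4.0.16 (R 4.3.3): TMM scaling and robust quasi-likelihood tests, called at a Benjamini-Hochberg adjusted p under 0.05 over all tested genes. Extracts with 1 library a dose borrow the spread of the replicated groups. Mean ± SD values are over 3 libraries. Tested on simulated data for Palmul-tang 500 against 20 µg/mL (17531 genes), the fit recovered 64% of genes changed 1.15-fold, 90% at 1.25-fold, 98% at 1.5-fold and 100% at 2-fold. The changed genes, 50 per fold, were drawn from genes above a CPM floor, so these are not rates over all tested genes. Of 186 calls 10 were false. In the same simulated data 1 call was made for Sibjeondaebo-tang 500 against 20 µg/mL, where no gene was changed.

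The alternatives were DESeq2 1.42.0 size factors and Wald test, no filter, only the compared groups, the replicate number as a block, each library left out and, added after seeing the data, total counts without TMM factors. The 3 comparisons across extracts of 500 with 20 µg/mL that include ethanol extracts were also added after seeing the data. In these 3, an extract with 1 library a dose dropped out whole when its library at either dose was left out. Genes with full values were those called at 500 against 20 µg/mL or in both comparisons of 500 µg/mL with vehicle, and up to 4 per single-library extract by smallest p. Members and lists were chosen with earlier results of these data known. Of the related sterol genes, 1 called lower is not reported here.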

Additional observations from a re-analysis of the deposited data

Results flagged for a closer look

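For 4 members the change from 20 to 500 µg/mL differed between the ethanol extracts and both formulas by a test of the difference itself, in edgeR: INSIG1 by -0.34, STARD4 by -0.36, SQLE by -0.21 and NPC1 by 0.31 on the log2 scale. The ethanol extracts gave -0.26 for INSIG1, -0.30 for STARD4, -0.19 for SQLE and 0.11 for NPC1, where both formulas gave 0.08, 0.06, 0.02 and -0.20. Each call was lost when either Atractylodis Rhizoma library was left out, which took that extract out of the comparison. Without it the difference was -0.18 for INSIG1, -0.14 for SQLE and 0.19 for NPC1, and -0.31 for STARD4, which changed less. The cause was not tested.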

How the results depend on the processing

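Over 34 counts of called members, 474 of 516 alternative values stayed within 1.5 times the reported count and 42 did not. Over 125 calls of single members or fold changes, 1510 of 1783 alternatives kept the call, 273 lost it and 0 changed direction. With 1 library left out, the counts ranged as follows. At 500 against 20 µg/mL the fatty acid arm gave 1 to 2 in Palmul-tang and 1 to 5 in Sibjeondaebo-tang. The sterol arm gave 1 to 3 in Sibjeondaebo-tang, 2 to 5 over both formulas and 3 to 8 over all 5 extracts. The count of 2 over both formulas came without Sibjeondaebo-tang 500 replicate 2, Palmul-tang 500 replicate 3 or Sibjeondaebo-tang 20 replicate 3. In the ethanol extracts 1 library left out took its whole extract with it, leaving 1 library a dose, so no range is given. In the difference between ethanol extracts and formulas the sterol arm gave 0 to 4 and the fatty acid arm 0 to 1. Ethanol extracts dropped out of it in the same way. Against vehicle, the fatty acid arm gave 4 to 7 at 500 µg/mL of Sibjeondaebo-tang, 3 to 7 at 20 µg/mL of both formulas and 3 to 6 in Atractylodis Rhizoma. The sterol arm gave 2 to 5 at 100 µg/mL of both formulas, 3 to 6 in Samul-tang and 5 to 10 in Atractylodis Rhizoma. Leaving out vehicle replicate 3 gave the lowest count in Samul-tang and at 20 µg/mL, and leaving out the Atractylodis Rhizoma library at 500 µg/mL gave 5 and 3 in that extract.

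With no filter on low counts 1 fatty acid arm member was called in Palmul-tang at 500 against 20 µg/mL and 3 in the ethanol extracts. With only the compared groups fitted, 1 sterol arm and 1 fatty acid arm member were called in Sibjeondaebo-tang at 500 against 20 µg/mL, and 6 sterol arm members at 100 µg/mL of both formulas against vehicle. DESeq2 size factors gave 2, and the DESeq2 test 3, fatty acid arm members in the ethanol extracts, and the DESeq2 test 1 in their difference from the formulas. Total counts without TMM factors gave 3 sterol arm members at 20 µg/mL of both formulas, 3 in Samul-tang and 6 in Atractylodis Rhizoma, and 8 fatty acid arm members in Poria Cocos, all against vehicle. The labels do not say whether replicate numbers pair the samples, and the main fit had no block. Deviations of same-numbered treated libraries correlated at -0.189 to 0.328 (median 0.0782). Those of other-numbered treated libraries correlated at -0.278 to 0.187 (median -0.0454), so pairing is not excluded. With the replicate number as a block, 5 sterol arm members were called at 100 µg/mL of both formulas against vehicle, 2 fatty acid arm members in the ethanol extracts and 1 in their difference from the formulas. The cause of these shifts was not tested. The ethanol extracts alone, and Poria Cocos against Atractylodis Rhizoma alone, leave no residual degrees of freedom or no replicated group, so they were not fitted on their own. Low counts limit TM7SF2, HSD17B7 and MVK.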
